A study of Mus musculus with 21 samples.

Results

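The cultures described here are those of library set 8 in a CRISPR activation experiment in Neuro2a, a mouse neuroblastoma line. They were chosen by the library name, with earlier results of these data known. The choice gave 6 of the 21 samples of the series and 6 of its 12 Neuro2a samples. In the CRISPRa group (replicates 4, 5 and 6, n = 3), cells received 750 ng of sgRNA plasmid and 750 ng of sadCas9-VP64 plasmid. In the VP64 only group (replicates 4, 5 and 6, n = 3), cells received the same 750 ng of sadCas9-VP64 plasmid, without sgRNA plasmid. Both groups therefore carried the activator, and no culture without plasmid was among them. The other 6 Neuro2a samples, library set 7, had the same 2 treatments (replicates 1, 2 and 3 of each) and serve here for comparison. The labels name Scn2a as the target of the sgRNA in the mice of the series and name no target for the cultures. They give no filler plasmid for the VP64 only cultures, so presence of the guide and total plasmid received cannot be told apart. The labels do not say whether replicates were separate cultures, so p-values measure the spread between these libraries, which may be technical.

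CRISPR activation uses a catalytically dead Cas9, here the Staphylococcus aureus protein, fused to the VP64 transcriptional activator, and a guide RNA that brings the fusion to a promoter. Cells that sense foreign nucleic acid in the cytosol or in endosomes induce interferons and, through JAK kinases and STAT and IRF transcription factors, a set of interferon-stimulated genes. These genes encode oligoadenylate synthetases, IFIT proteins, guanylate-binding proteins and antigen presentation proteins, and many carry an interferon-stimulated response element near their start. Genes of glucose uptake, glycolysis and mitochondrial turnover are known targets of the hypoxia-inducible factors (HIF), which bind a short core element.

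RNA was polyA-selected and sequenced, and the deposited values are counts per 1e+06 reads (CPM) for 31553 features. The estimated depth was 15.5 to 15.9 M reads (M, 1e+06) in the CRISPRa libraries and 15.8 to 21.0 M in the VP64 only libraries. Correlations of log2 CPM between libraries were 0.992 to 0.993 within a group and 0.986 to 0.988 between groups. The first principal component held 47.4% of the variance and separated the groups. The labelled cell type had its markers: Hand2, Prph and Ret, genes of sympathetic neurons and neuroblastoma, averaged 333, 1123 and 1169.7 CPM in CRISPRa and 373, 1295 and 1311 CPM in VP64 only cells. Slc6a2, the noradrenaline transporter, was listed at 0. Summed levels of macrophage and microglia markers were 1.30 to 2.78 CPM in CRISPRa and 0.525 to 1.995 CPM in VP64 only libraries, with 5 of the 11 markers in the table and Cx3cr1 at 0. Fibroblast markers summed to 14.9 to 17.3 CPM in CRISPRa and 19.0 to 22.1 CPM in VP64 only libraries. The share of mitochondrially encoded RNA was 1.24 ± 0.156% in CRISPRa and 0.979 ± 0.0611% in VP64 only cells (SD, n = 3 each).

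Scn2a encodes the voltage-gated sodium channel Nav alpha subunit of which the Het mice of the series lack 1 copy. It had 4.09, 5.02 and 4.10 CPM in the CRISPRa libraries, against 2.86, 3.05 and 3.16 CPM in the VP64 only libraries. These levels rest on 65, 78 and 64 reads in CRISPRa and 60, 51 and 50 reads in VP64 only. The groups did not overlap, and the means of 4.404 ± 0.537 CPM and 3.02 ± 0.151 CPM (SD, n = 3 each) differed by a ratio of 1.46. The log2 change was 0.47 ± 0.17 (SE) and missed the threshold of 0.05, with a limma adjusted p of 0.0533. An exact two-sided permutation test of the 3 against 3 levels gave 0.1, the smallest p this design allows. Across the alternatives the adjusted p ran between 0.0292 and 0.207 and passed in 5 of them. In the authors' deposited table, made from all 12 Neuro2a libraries, Scn2a had a log2 change of 0.52 ± 0.14 and an adjusted p of 0.00285.

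The gene has 2 promoter windows in RefSeq (GRCm38.p6, plus strand), at chr2:65620519-65620818 and chr2:65668436-65668735. They are printed because the mouse labels name this gene as the guide's target. Each window runs from 250 bases before to 50 bases after a start of the gene, and the guide's own sequence is not given in the sources used here.
Scn2a, first window: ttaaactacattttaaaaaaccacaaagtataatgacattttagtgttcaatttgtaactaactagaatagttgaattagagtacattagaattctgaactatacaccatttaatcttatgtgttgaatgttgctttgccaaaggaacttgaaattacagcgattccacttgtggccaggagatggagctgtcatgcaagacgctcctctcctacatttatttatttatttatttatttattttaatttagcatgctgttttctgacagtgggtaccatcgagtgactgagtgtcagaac
Scn2a, second window: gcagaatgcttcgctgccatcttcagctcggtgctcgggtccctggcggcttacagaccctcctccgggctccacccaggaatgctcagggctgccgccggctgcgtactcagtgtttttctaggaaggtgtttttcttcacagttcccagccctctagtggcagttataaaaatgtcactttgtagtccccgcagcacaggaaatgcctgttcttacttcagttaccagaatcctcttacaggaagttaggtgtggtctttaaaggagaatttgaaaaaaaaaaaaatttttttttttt

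Of the 8 voltage-gated sodium channel genes that could be tested, 0 rose and 0 fell by limma, and 1 of them, Scn2a, was higher and 1 lower at an unadjusted p under 0.05. Over all 14494 genes tested, 13.9% rose and 10.2% fell. Their median log2 change was 0.06, beside 0.02 over all genes. Scn8a had 37.8, 40.8 and 36.7 CPM in CRISPRa and 36.9, 39.6 and 37.9 CPM in VP64 only libraries, and Scn9a, a neighbour of Scn2a on the chromosome, had a log2 change of 0.11 ± 0.08. Of the 12 genes tested around Scn2a, only Ifih1 passed, with a change of 1.19 ± 0.07. Ifih1 encodes MDA5, a cytosolic sensor of double-stranded RNA. The other 11 lay between -0.17 and 0.20, and 1 of them, Ttc21b at -0.16 ± 0.06, passed with either other scaling of the libraries and without CRISPRa replicate 6. Of 16 potassium and HCN channel genes 2 rose and 1 fell, shares no larger than those of all genes. Those that rose, Kcnn3 and Kcnh2, did so by 0.58 ± 0.16 and 0.12 ± 0.04, and all 3 calls were lost in several alternatives. Of 11 axon initial segment and node genes, Sptan1 and Ndel1 both rose by 0.18, a share near the 13.9% of all genes. Both calls were lost without a trend in the variance model (adjusted p 0.067 and 0.0791, limma), and that of Ndel1 also without VP64 replicate 6. Ank3, the scaffold that anchors sodium channels there, had a change of -0.01 ± 0.05.

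The transcripts of the introduced plasmids differed between the groups as well. The activator transcript had 564, 604 and 632 CPM in CRISPRa libraries, against 360, 370 and 318 CPM in VP64 only libraries. Its means of 599.8 ± 34.3 and 349 ± 27.5 CPM (SD, n = 3 each) stood in a ratio of 1.72 and the groups did not overlap (exact permutation p 0.1, the smallest possible). In library set 7 the order was the other way, with 1683 to 2154 CPM in CRISPRa and 2497 to 2646 CPM in VP64 only libraries. The mCherry-puromycin transcript had 1574, 1680 and 1927 CPM in CRISPRa libraries of set 8 and was listed at 0 in the VP64 only libraries. In set 7 CRISPRa libraries it had 4626 to 5782 CPM. The part of these transcript levels in the results below was not tested.

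**Figure D1:**
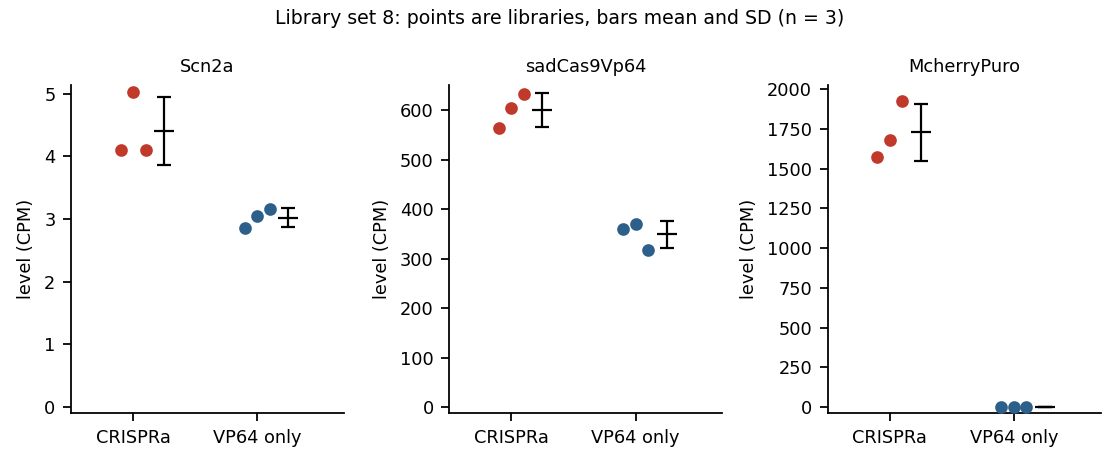
Levels (CPM, linear axes from 0) of Scn2a, the activator transcript sadCas9Vp64 and the mCherry-puromycin transcript McherryPuro in the 3 CRISPRa (red, left) and 3 VP64 only (blue, right) libraries of set 8, with mean and SD. The Scn2a groups, 4.404 and 3.02 CPM on average, are close but do not overlap, and the activator transcript was 1.72 times as high in the CRISPRa libraries.

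Across all genes, 3490 of 14494 tested passed the limma threshold (24.1%), of which 2013 were higher in CRISPRa (13.9%) and 1477 lower (10.2%). The split depends on the scaling of the libraries: 1661 were higher and 1798 lower with median-of-ratios scaling, and 1591 higher and 1783 lower with quantile scaling. Most changes were small, with a median absolute log2 change of 0.28 among the genes that passed and a median SE of 0.09 over all genes. Changes of at least 2-fold were reached by 134 genes that rose and 36 that fell, and of at least 4-fold by 39 that rose and 3 that fell. Levels of 5551 genes (38.3%) did not overlap between the groups. These are bulk values, in which more responding cells and more RNA in each cannot be told apart. Of the 3490 genes, 3489 were listed in the authors' deposited table, which was made from all 12 Neuro2a libraries, these 6 included, and 1717 were past 0.05 there.

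**Figure D2:**
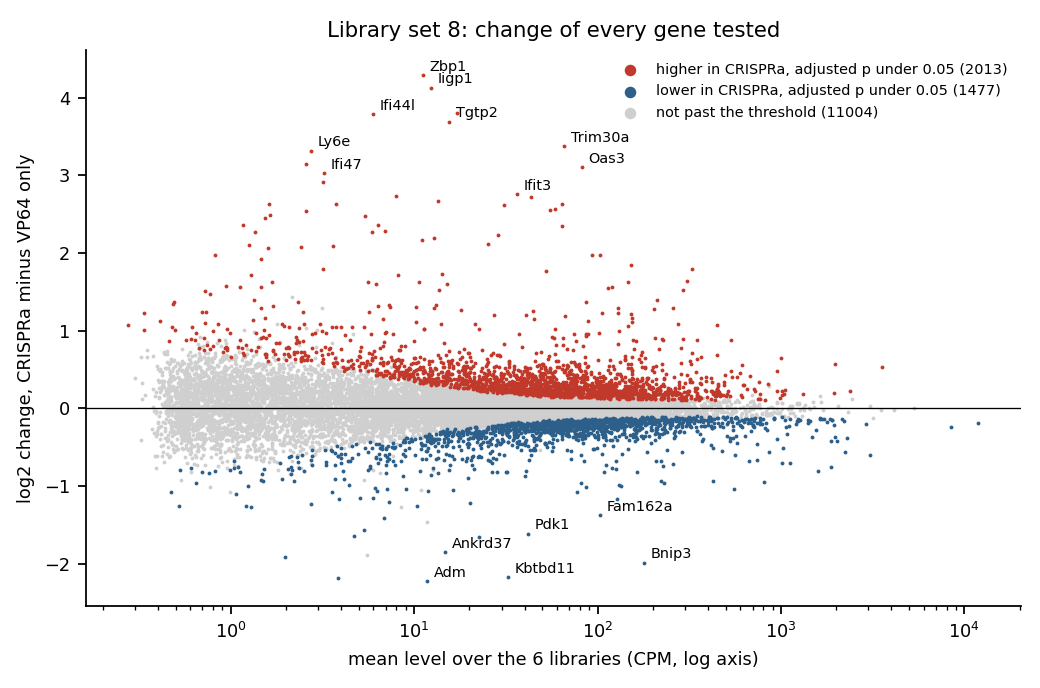
Log2 change (CRISPRa minus VP64 only) of the 14494 genes tested in set 8 against their mean level over the 6 libraries (CPM, log axis). Red points are the 2013 genes higher and blue points the 1477 genes lower in CRISPRa, and the upper tail, led by Zbp1 at 4.29, reaches further than the lower tail, which ends with Adm at -2.22.

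Interferon-stimulated genes led the rises. Of the 39 genes at least 4-fold higher, 22 belonged to 9 lists of interferon-related genes, as did 54 of the 134 at least 2-fold higher. The lists held 127 of the 14494 genes tested. They were chosen with earlier results of these data known, so these counts describe the rises and are no independent test. Over these 9 lists, 106 of 127 tested genes rose and 2 fell, beside 13.9% and 10.2% of all genes. Zbp1, a sensor of left-handed Z-form nucleic acid, led with 17.9, 22.2 and 24.9 CPM in CRISPRa libraries, against 0.715, 0.597 and 0.569 CPM in VP64 only libraries. All CRISPRa levels lay far above all VP64 only levels, a log2 change of 4.29 ± 0.17 and a ratio of 34.5 between the means. The VP64 only levels of Zbp1 lay near the filter of 0.5 CPM, so its ratio is uncertain. Trim30a, a TRIM family protein, had 98.3, 129.8 and 135 CPM in CRISPRa, against 12.9, 10.2 and 10.4 CPM in VP64 only libraries (3.38 ± 0.11). Oas3, an oligoadenylate synthetase, had 127, 156 and 160.2 CPM in CRISPRa, against 15.4, 18.6 and 16.1 CPM in VP64 only libraries (3.11 ± 0.09). Ifit3, which binds other IFIT proteins that recognise foreign RNA, had 59.96, 59.1 and 71.8 CPM in CRISPRa, against 8.70, 8.19 and 10.0 CPM in VP64 only libraries (2.76 ± 0.10). Sp100, a protein of nuclear bodies, had 67.6, 78.3 and 81.5 CPM in CRISPRa, against 13.9, 10.9 and 8.72 CPM in VP64 only libraries (2.73 ± 0.12). In each of these genes the groups were separate by several times the spread between libraries. The rule that picked these genes required groups that did not overlap.

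Like Zbp1, the remaining genes of the 12 largest rises had low levels in VP64 only cells. Iigp1, Tgtp2 and Ifi47 encode immunity-related GTPases that act on pathogen vacuoles, and they averaged 23.9, 29.2 and 6.15 CPM in CRISPRa, against 0.871, 1.79 and 0.309 CPM in VP64 only cells. Ifi44l averaged 11.5 CPM in CRISPRa, against 0.355 CPM in VP64 only cells, Csprs 6.01 and 0.350 CPM, and Gbp9 14.2 and 1.75 CPM. Ly6e, a lipid-anchored surface protein, had 2.58, 6.403 and 7.295 CPM in CRISPRa libraries, against 0.0954, 0.0597 and 0 CPM in VP64 only libraries, too few reads for a ratio. Genes of this kind come in near-identical copies (Tgtp1 and Tgtp2, the Gbp cluster, Ifit3 and Ifit3b), and how reads shared by copies were counted is not stated, so the split among copies is uncertain. Smallest p-values belonged to Ifit1, Rsad2 (viperin), Phf11d and Oas3, all with an adjusted p of 5.44e-13 by limma. Ifit1 rose by 1.52 ± 0.04, with 433, 419 and 448 CPM in CRISPRa and 153, 147 and 151 CPM in VP64 only libraries.

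**Figure D3:**
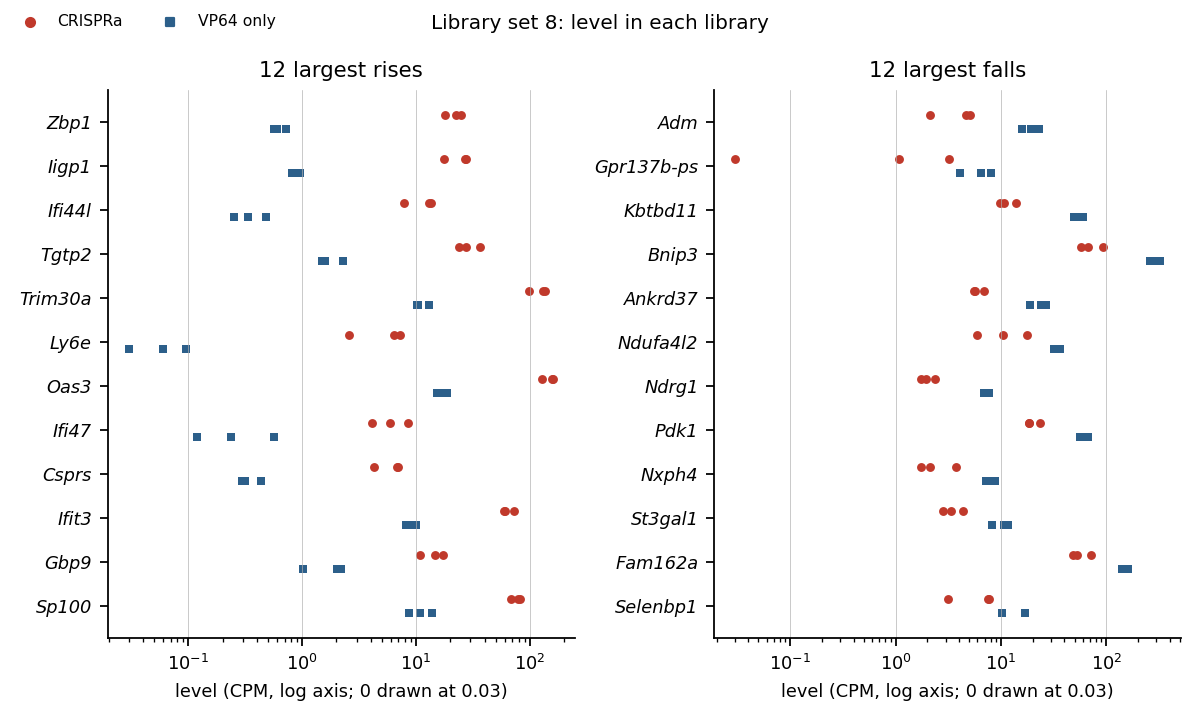
Level of the 12 genes with the largest rises and the 12 with the largest falls in each library of set 8 (CPM, log axis, 0 drawn at 0.03), with CRISPRa as red circles above VP64 only as blue squares. No gene overlaps between the groups, the named-gene rule having required this, and Zbp1 and Adm head the panels.

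The promoter windows of these genes were searched for a motif resembling the interferon-stimulated response element. The letters GAAA, any 2 bases and again GAAA, on either strand, occur in 3.44% of the 32851 RefSeq windows of 300 bases (GRCm38.p6). Among genes at least 2-fold higher, 82 of 134 had a window and 33 of their 104 windows held the motif, 31.7%, while 0 of 22 windows of the genes at least 2-fold lower did. Of the 12 largest rises, 7 had a window and 4 of these (Tgtp2, Trim30a, Oas3 and Ifit3) held the letters. A match describes the letters and does not show that a factor binds there. The windows of Oas3 (chr5:120777610-120777909, minus strand) and Ifit3 (chr19:34583279-34583578, plus strand) are printed as examples from the strongest rises, with matches in capitals.
Oas3: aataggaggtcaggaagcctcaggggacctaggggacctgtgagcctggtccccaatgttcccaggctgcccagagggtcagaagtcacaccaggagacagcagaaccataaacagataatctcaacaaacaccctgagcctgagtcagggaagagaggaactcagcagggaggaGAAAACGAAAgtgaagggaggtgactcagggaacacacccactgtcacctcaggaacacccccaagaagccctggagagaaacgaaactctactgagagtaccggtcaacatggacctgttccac
Ifit3: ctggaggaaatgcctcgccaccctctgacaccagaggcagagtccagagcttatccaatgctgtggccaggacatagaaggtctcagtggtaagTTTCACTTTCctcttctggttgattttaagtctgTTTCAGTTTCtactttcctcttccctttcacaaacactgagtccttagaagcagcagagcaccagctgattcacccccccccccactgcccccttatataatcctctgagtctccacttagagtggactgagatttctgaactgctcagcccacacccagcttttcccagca

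The sensors upstream of such a response rose in part. Of 10 cytosolic nucleic acid sensors and relatives tested, 6 rose and 0 fell, beside 13.9% and 10.2% of all genes. The list median was 0.53. Besides Zbp1 and Ifih1 the sensors that rose were Dhx58 (1.20 ± 0.08), Rigi (0.76 ± 0.05), the endosomal receptor Tlr3 (0.73 ± 0.06) and the kinase Eif2ak2 (0.33 ± 0.05). Cgas, the cytosolic DNA sensor, had 12.4, 14.4 and 12.2 CPM in CRISPRa and 13.3, 14.2 and 10.7 CPM in VP64 only libraries, overlapping levels. Its adaptor Sting1 had 35.4, 36.9 and 40.5 CPM in CRISPRa and 46.4, 40.9 and 40.9 CPM in VP64 only libraries, with an adjusted p of 0.0763 by limma, and it passed as lower with either other scaling and without CRISPRa replicate 6. None of the interferon genes looked for could be tested. Ifnb1 averaged 0.021 CPM in CRISPRa cells and was listed at 0 in VP64 only cells, and the other 10 ligands were not found under their symbols.

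Among the genes that carry an interferon signal, several transcription factors rose and no receptor gene passed. Of 20 genes tested in this list, 9 rose and 0 fell (median 0.17), beside 13.9% and 10.2% of all genes. The type I receptor genes Ifnar1 and Ifnar2 had changes of -0.07 ± 0.05 and -0.11 ± 0.07, and neither passed. Irf7, the factor that amplifies interferon induction, had 208, 219 and 240.0 CPM in CRISPRa, against 73.2, 71.7 and 70.3 CPM in VP64 only libraries (1.62 ± 0.05). Stat2 rose by 1.23 ± 0.06, and Irf9, its DNA-binding partner, by 0.29 ± 0.04. Irf1 rose by 0.91 ± 0.06, and Jak1, Stat3, Irf5 and the feedback inhibitor Socs1 rose by 0.17, 0.31, 0.64 and 0.59.

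Downstream, whole families rose together, where 13.9% of all genes rose and 10.2% fell. All 8 tested genes of the oligoadenylate synthetase list rose (median 1.25), among them Oas1g (2.11 ± 0.15), Oas2 (1.85 ± 0.07) and Oas1a (1.21 ± 0.08). In the guanylate-binding protein and immunity-related GTPase list all 16 tested genes rose (median 2.37), with Gbp10 at 2.67 ± 0.14, Gbp3 at 1.97 ± 0.06 and Irgm1 at 1.06 ± 0.05. All 13 genes of ISG15 conjugation and the PARP family rose (median 0.93), with Isg15 itself at 348, 372 and 385 CPM in CRISPRa, against 161, 145 and 145 CPM in VP64 only libraries, and Usp18, which removes ISG15, at 1.40 ± 0.06. Of 25 other antiviral effectors 22 rose and 1, Ifitm2, fell by 0.17 on the log2 scale (list median 0.78), a fall whose call was lost in 5 alternatives. Mx1, a dynamin-like GTPase that blocks viral replication, rose by 2.57 ± 0.08 and Rsad2 by 1.64 ± 0.04, while Apobec1 and Slfn8 did not pass. Of 12 Ifit and Ifi genes 10 rose (median 1.28), Ifit1bl1 did not pass, and Ifi27 fell. Ifi27, which is induced by interferon in other settings, had 128, 112 and 119 CPM in CRISPRa, against 203, 214 and 213 CPM in VP64 only libraries (-0.81 ± 0.05).

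Antigen presentation genes rose by smaller amounts, where 13.9% of all genes rose. All 17 tested genes of MHC class I and antigen processing were higher (median 0.69), from Erap1 at 0.31 ± 0.04 to the transactivator Nlrc5 at 2.10 ± 0.29. B2m, the light chain of MHC class I, had 451, 445 and 458 CPM in CRISPRa, against 284, 280.4 and 292 CPM in VP64 only libraries (0.66 ± 0.04). H2-K1 rose by 0.72 ± 0.06, the peptide transporter subunit Tap1 by 0.96 ± 0.05 and the immunoproteasome subunit Psmb9 by 1.24 ± 0.18. H2 genes share long stretches of sequence, so levels of single H2 genes are uncertain. The summed level of the list was 2325 to 2547 CPM in CRISPRa and 1518 to 1527 CPM in VP64 only libraries.

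Chemokines rose as well. Among 6 chemokines tested 5 rose (median 0.84), beside 13.9% of all genes. Cxcl10, which attracts T cells, had 168, 175 and 192 CPM in CRISPRa, against 65.6, 54.3 and 60.9 CPM in VP64 only libraries (1.56 ± 0.06). Ccl5 rose by 1.08 ± 0.11 and Cxcl1 by 0.98 ± 0.14. Of 15 NF-kappaB subunits and feedback genes 9 rose and 0 fell (median 0.34), but 4 passed without CRISPRa replicate 6 and 5 without VP64 replicate 5. The feedback inhibitors Nfkbia and Tnfaip3, rapid targets of NF-kappaB, had changes of -0.01 ± 0.06 and -0.16 ± 0.15 that did not pass. Of 14 cell death genes 7 rose and 1 fell (median 0.20), beside 13.9% and 10.2% of all genes. Mlkl, the effector of necroptosis, rose by 0.95 ± 0.07.

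**Figure D4:**
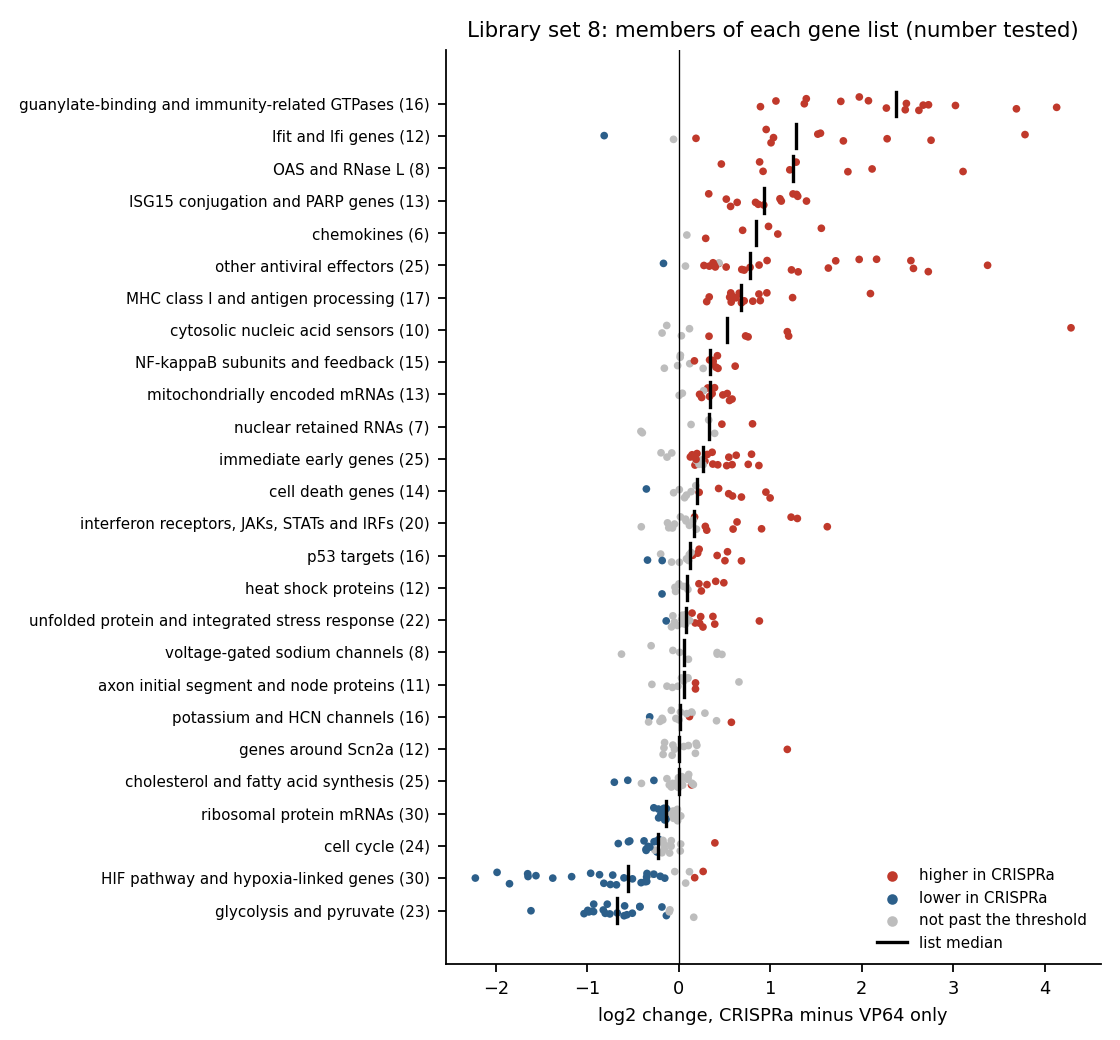
Log2 change (CRISPRa minus VP64 only) of every tested member of 26 gene lists in set 8, ordered by the list median (black bar), with the number tested in brackets. Red points rose, blue points fell and grey points did not pass. Lists of interferon-stimulated genes lie at the top, with guanylate-binding proteins at a median of 2.37, and glycolysis and hypoxia-linked genes at the bottom, with medians of -0.67 and -0.55.

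Falls were led by genes linked to hypoxia. Of 30 tested genes of the HIF pathway and hypoxia-linked list 24 fell and 2 rose (median -0.55), beside 10.2% and 13.9% of all genes. Adm, the vasodilator peptide adrenomedullin, had 5.10, 2.13 and 4.67 CPM in CRISPRa libraries, against 15.9, 19.5 and 22.98 CPM in VP64 only libraries (-2.22 ± 0.22). Bnip3, a receptor for mitochondrial autophagy, had 93.9, 57.1 and 67.6 CPM in CRISPRa, against 259.7, 274 and 321 CPM in VP64 only libraries (-1.98 ± 0.12). Ankrd37 averaged 6.07 CPM in CRISPRa, against 23.3 CPM in VP64 only cells, and Fam162a 57.8 and 149 CPM. No CRISPRa library reached the lowest VP64 only library in any of these, which the rule that picked these genes required. Ndrg1, Nxph4 and Ndufa4l2, which is related to a respiratory chain subunit, fell by 1.65, 1.56 and 1.65 on the log2 scale. Car12, a membrane carbonic anhydrase, fell by 1.17 ± 0.06 and the collagen-modifying enzyme Plod2 by 0.96 ± 0.06.

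The genes of oxygen sensing itself were mixed. Egln1, the main HIF prolyl hydroxylase and itself a HIF target, fell by 0.72 ± 0.04 and Vhl by 0.35 ± 0.05. Hif1a had 364, 394 and 387 CPM in CRISPRa, against 336, 311 and 305 CPM in VP64 only libraries, and rose by 0.27 ± 0.04, as did Egln2 by 0.17 ± 0.06, a call lost in 9 alternatives. Vegfa, a widely used hypoxia target, had 559, 571 and 529 CPM in CRISPRa and 568, 583 and 558 CPM in VP64 only libraries, overlapping levels with a change of -0.04 ± 0.04. Arnt, Hif1an and Car9 did not pass either.

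Glycolysis fell along most of its length. Of 23 tested genes 20 fell and 0 rose (median -0.67), beside 10.2% and 13.9% of all genes. Pfkp, Pfkfb3 and Pfkfb4 were not past the threshold. The glucose transporter Slc2a1 had 93.7, 87.7 and 86.4 CPM in CRISPRa, against 162, 176 and 198 CPM in VP64 only libraries (-0.99 ± 0.06). Hk2, which traps glucose in the cell, fell by 0.78 ± 0.05, the phosphofructokinase Pfkl by 0.93 ± 0.07 and Pgam1 by 0.95 ± 0.07. Lactate dehydrogenase Ldha had 1605, 1253 and 1349.5 CPM in CRISPRa, against 2263, 2259 and 2543 CPM in VP64 only libraries (-0.75 ± 0.07). The lactate exporter Slc16a3 fell by 1.03 ± 0.06. Pdk1, a kinase that inhibits pyruvate dehydrogenase, had 23.7, 18.6 and 18.6 CPM in CRISPRa, against 56.0, 65.6 and 67.4 CPM in VP64 only libraries (-1.61 ± 0.09). Summed over the list, levels were 12703 to 16067 CPM in CRISPRa and 20345 to 23352 CPM in VP64 only libraries, so that these transcripts took a smaller share of every CRISPRa library.

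The core of the hypoxia response element, ACGTG on either strand, occurs in 19.6% of all RefSeq windows. It was in 8 of 22 windows of the genes at least 2-fold lower, 36.4%, and in 12 of 104 windows of the genes at least 2-fold higher, 11.5%. Of the 12 largest falls 6 had a window, and Bnip3, Ankrd37, Fam162a and Selenbp1 held the letters. The windows of Bnip3 (chr7:138909457-138909756, minus strand) and Ankrd37 (chr8:45999801-46000100, minus strand) are printed for comparison with those of the rises, with matches in capitals. The matches of Bnip3 on its opposite strands overlap.
Bnip3: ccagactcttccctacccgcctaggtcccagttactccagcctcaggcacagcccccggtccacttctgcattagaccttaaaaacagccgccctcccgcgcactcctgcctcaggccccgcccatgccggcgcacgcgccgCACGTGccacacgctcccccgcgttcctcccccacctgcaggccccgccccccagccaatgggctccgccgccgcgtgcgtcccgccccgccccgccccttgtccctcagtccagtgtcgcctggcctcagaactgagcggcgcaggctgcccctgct
Ankrd37: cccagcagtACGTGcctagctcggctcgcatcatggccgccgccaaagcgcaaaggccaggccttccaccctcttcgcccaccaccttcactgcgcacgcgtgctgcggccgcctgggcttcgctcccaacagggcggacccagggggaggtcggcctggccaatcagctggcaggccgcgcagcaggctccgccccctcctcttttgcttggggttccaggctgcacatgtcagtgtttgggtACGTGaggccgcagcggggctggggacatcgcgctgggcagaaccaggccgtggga

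The other largest falls were Kbtbd11, St3gal1, Selenbp1 and the pseudogene Gpr137b-ps. Kbtbd11, a Kelch repeat protein, had 13.98, 9.725 and 10.8 CPM in CRISPRa, against 49.3, 50.1 and 60.2 CPM in VP64 only libraries (-2.17 ± 0.11). St3gal1, a sialyltransferase, fell by 1.42 ± 0.17, and Selenbp1 by 1.25 ± 0.26. Gpr137b-ps had 0, 3.21 and 1.08 CPM in CRISPRa, against 6.45, 4.10 and 8.09 CPM in VP64 only libraries, and shares sequence with its parent gene. The calls of Gpr137b-ps, Selenbp1 and Ndufa4l2 were lost with a robust variance model.

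Mitochondrial and ribosomal transcripts moved in opposite ways. Of 13 mitochondrially encoded mRNAs 10 rose and 0 fell (median 0.34), beside 13.9% and 10.2% of all genes. However, 0 passed when the variance was modelled without trend. mt-Co1, a subunit of cytochrome oxidase, had 5155, 3917 and 3547 CPM in CRISPRa, against 2932, 2766 and 2931 CPM in VP64 only libraries, and the CRISPRa libraries varied the more. Of 30 ribosomal protein mRNAs 16 fell and 0 rose (median -0.13), where 10.2% of all genes fell. Under quantile scaling 4 fell, and 10 fell without CRISPRa replicate 6 or VP64 replicate 4. Rpl3 had 1403, 1384 and 1419 CPM in CRISPRa, against 1666, 1669 and 1745 CPM in VP64 only libraries (-0.27 ± 0.04). Of 7 nuclear retained RNAs Malat1 and Neat1 rose, by 0.47 ± 0.06 and 0.81 ± 0.13, where 13.9% of all genes rose.

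Proliferation genes fell in part. Of 24 tested cell cycle genes 12 fell and 1, Ccnd1, rose by 0.40 ± 0.04 (list median -0.23). Among all genes 10.2% fell and 13.9% rose. Top2a, the mitotic topoisomerase, had 401, 379.5 and 380.1 CPM in CRISPRa, against 544, 583 and 572 CPM in VP64 only libraries (-0.55 ± 0.04). Rrm2, which supplies deoxynucleotides, fell by 0.66 ± 0.07, Aurkb by 0.53 ± 0.06, Cdk1 by 0.38 ± 0.04 and Mki67 by 0.36 ± 0.05. Of 16 p53 targets 7 rose and 2 fell (median 0.13), beside 13.9% and 10.2% of all genes. The falls were near the share of all genes, and without a trend in the variance model 4 rose and 1 fell. The cyclin kinase inhibitor Cdkn1a had a change of 0.53 ± 0.06 and Sesn1 of -0.34 ± 0.08.

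Early response genes rose, and stress genes rose in part, where 13.9% of all genes rose and 10.2% fell. Of 25 immediate early genes 18 rose and 0 fell (median 0.27, with 10 rising without trend). Klf6 had 299, 283 and 298 CPM in CRISPRa, against 159, 158 and 161 CPM in VP64 only libraries (0.88 ± 0.04), and Jund, Jun and Klf4 rose by 0.63, 0.58 and 0.55. Of 22 genes of the unfolded protein and integrated stress responses 8 rose and 1 fell (median 0.08). Atf3 rose by 0.88 ± 0.08, while Atf4 and its target Trib3 had 0.07 ± 0.04 and -0.05 ± 0.05 and did not pass. Among 12 heat shock proteins 5 rose and 1, Hspd1, fell (median 0.09), with Hsph1 at 0.49 ± 0.05. The falls in the stress response and heat shock lists were not above the share of all genes. Of 25 genes of cholesterol and fatty acid synthesis 1 rose and 3 fell, around a median of 0.00, so that the falls were near the 10.2% of all genes and the rises below the 13.9%. Those that fell were Scd2 (-0.70 ± 0.04), Srebf1 (-0.56 ± 0.06) and Stard4 (-0.27 ± 0.07), and Sqle rose by 0.14 ± 0.05, a call lost in 9 alternatives.

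The same contrast was compared with that in library set 7, which has its own controls. The difference between the changes (set 8 minus set 7) passed for 3114 of 15293 genes tested (20.4%), with 1342 above 0 (8.78%) and 1772 below 0 (11.6%). With median-of-ratios scaling 1781 were above and 1291 below 0, and with quantile scaling 1517 and 1421. Of the 3490 genes that changed in set 8, 1194 had a difference past the threshold. In 1609 of the 3114 genes the changes in the 2 sets had opposite signs. What the library set stands for is not given in the labels, so anything that varied between the sets cannot be told apart from it.

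The interferon-stimulated genes with the largest differences above 0 had lower levels in VP64 only cells of set 8 than in those of set 7. Trim30a averaged 120.9 CPM in CRISPRa, against 11.2 CPM in VP64 only cells of set 8, against 264 and 90.9 CPM in set 7, a difference between changes of 1.84 ± 0.15 on the log2 scale. Iigp1 averaged 23.9 CPM in CRISPRa, against 0.871 CPM in VP64 only cells of set 8, against 176 and 34.2 CPM in set 7 (1.74 ± 0.25). Oas3 averaged 148 CPM in CRISPRa, against 16.7 CPM in VP64 only cells of set 8, against 185 and 62.2 CPM in set 7 (1.54 ± 0.13). In all 3 the set 7 levels were the higher in both arms. Gbp10 and Gbp6 averaged 3.31 and 8.76 CPM in VP64 only cells of set 8, against 15.6 and 32.8 CPM in those of set 7. Of 8 oligoadenylate synthetase genes 7 had a difference above 0, as had 9 of 16 guanylate-binding and immunity-related GTPases, with Gbp5 below 0. The shares over all genes were 8.78% above 0 and 11.6% below 0. Irf7 rose by 1.62 in set 8 and 0.48 in set 7 (difference past the threshold, 1.15). Of 6 chemokines 2, Cxcl2 and Cxcl10, had a difference below 0: Cxcl10 had a change of 1.56 in set 8 and 1.998 in set 7, a difference of -0.44 that passed. Sting1 and Cgas had changes of -0.18 and 0.03 in set 8 and 0.62 and 0.54 in set 7, and both differences passed.

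Hypoxia-linked genes differed in both directions. Of 30 tested, 6 had a difference below 0 and 4 above, beside 11.6% and 8.78% of all genes. Those above were Hif1a (0.37), Vegfa (0.42), Ero1a (0.35) and Stc2 (0.60). Adm averaged 3.97 CPM in CRISPRa, against 19.5 CPM in VP64 only cells of set 8, against 3.26 and 4.23 CPM in set 7, a difference of -1.91 ± 0.32. Its level was high in the VP64 only cells of set 8 and low in the other 3 groups. Slc2a1 had a change of -0.99 in set 8 and -0.04 in set 7, and Slc16a3 of -1.03 and -0.15, and both differences passed. Of 23 glycolysis genes 10 had a difference below 0 and 0 above. Car12 and Egln1 had nearly the same change in both sets, with differences of -0.05 and 0.00.

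Other groups also differed between the sets, where 11.6% of all genes had a difference below 0 and 8.78% above 0. Txnip, a regulator of glucose uptake and redox state, averaged 17.9 CPM in CRISPRa, against 17.6 CPM in VP64 only cells of set 8, against 247 and 12.5 CPM in set 7, a difference of -4.24 ± 0.13. Of 25 cholesterol and fatty acid genes 15 had a difference below 0 and 0 above, with Hmgcs1 at -0.01 in set 8 and 0.75 in set 7. Of 25 immediate early genes 15 were below 0 and 1, Klf4, above, with Egr1 at 0.29 in set 8 and 1.28 in set 7. Cell cycle genes had 13 differences below 0 and 1 above, with Rrm2 at -0.66 in set 8 and 0.35 in set 7 and Mcm3 at -0.27 and 0.45. Unfolded protein and integrated stress genes had 12 differences above 0 and 0 below, with Herpud1 at 0.15 in set 8 and -0.82 in set 7. Scn2a had a difference of -0.06 with an adjusted p of 0.876 by limma, its changes being 0.47 in set 8 and 0.54 in set 7.

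**Figure D5:**
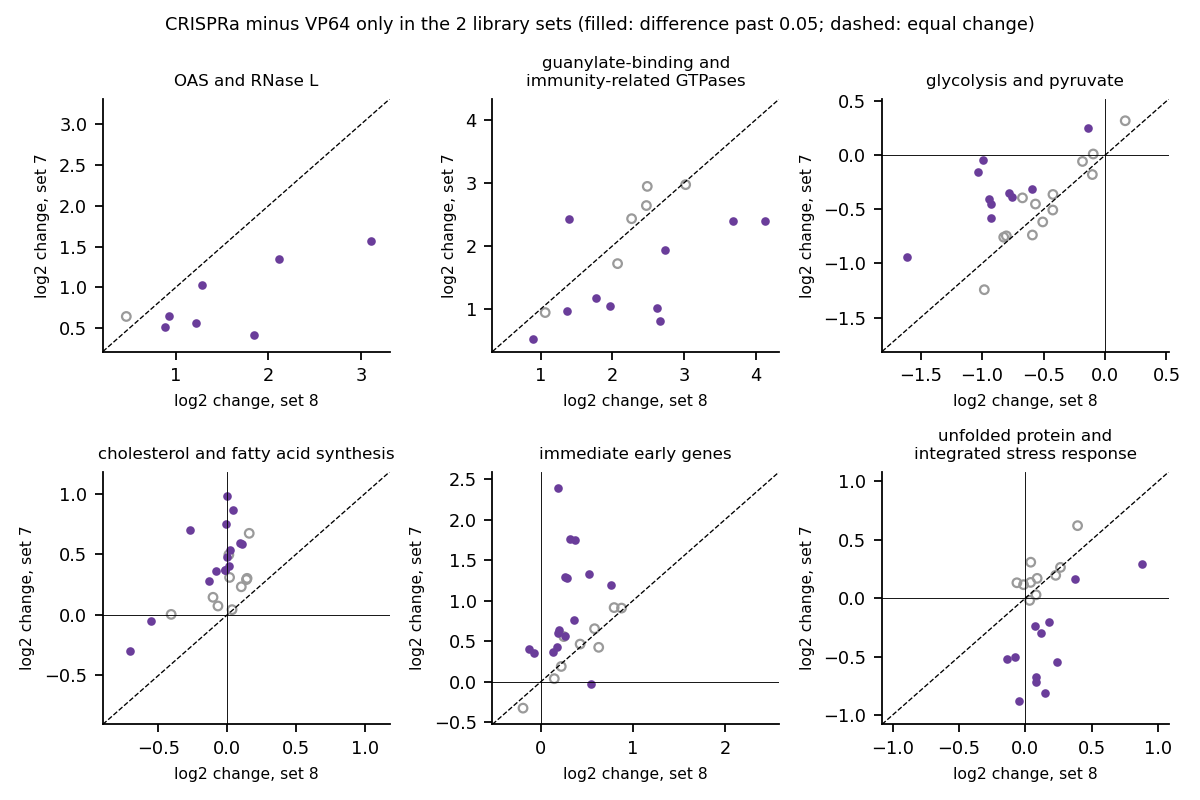
Log2 change (CRISPRa minus VP64 only) in library set 8 (horizontal) against library set 7 (vertical) for the tested members of 6 gene lists, with filled points where the difference between the sets passed 0.05 and a dashed line of equal change. Oligoadenylate synthetase genes lie below the line for 7 of 8 with a difference past the threshold, and cholesterol and early response genes lie mostly above it.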

How the data were processed

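PolyA RNA of Neuro2a cultures was measured in 12 libraries, 6 of them in set 8. STAR 2.7.8a, DESeq2 1.44, featureCounts and R 4.4 are named in the submitters' processing notes, beside the builds mm39 and GRCm39, without roles. Per the file headers the deposited table holds CPM, and each library sums to 1e+06, transgene features included. The authors' deposited table of log2 fold changes, with its adjusted p-value column, was read for comparison only. Depth was estimated from the CPM of 1 read, at which 71.7 to 73.2% of values above 0 were whole within 0.01, so count models were not run.

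A gene was tested where 3 or more of the 6 libraries had 0.5 CPM or more, with limma 3.58.1 in R 4.3.3 (lmFit, then trended eBayes) on log2(CPM + 0.5), which understates changes of low genes. Both transgene features stayed out. P-values were Benjamini-Hochberg adjusted over all genes, with 0.05 as the threshold. The difference between sets was a contrast in 1 fit of 12 libraries and 4 groups. Exact permutation tests and plots were made in Python 3.11.15 (scipy 1.17.1, matplotlib 3.10.9). The procedure was tested on simulated data. Alternatives were pseudocounts, filters, scalings, variance models, a replicate block and leaving out each library.

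Named were the 12 largest rises and falls past the threshold whose groups did not overlap, whose mean reached 2 CPM and whose symbol was neither a predicted nor a clone name. Of each list up to 4 members by smallest p were named, with those needed for counts of 5 or fewer. For the difference between sets the 6 largest in each direction were named. Other genes named were chosen after their values were seen. The samples, lists and rules were chosen with earlier results of these data known. A few list members counted in the text are not reported here by name.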

Additional observations from a re-analysis of the deposited data

Results flagged for a closer look

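Changes that differed between the library sets by the test of the difference itself (limma, adjusted p under 0.05) covered 3114 of 15293 genes (20.4%). The 12 largest rises and falls were picked by their set 8 change, which enters the difference. The choice therefore favours genes with a larger change in set 8. Of the 12 largest rises in set 8, 9 had a difference past the threshold. Their change exceeded that in set 7 by 1.30 on the log2 scale for Zbp1, 1.74 for Iigp1, 1.30 for Tgtp2, 1.84 for Trim30a, 1.54 for Oas3, 0.80 for Csprs, 0.91 for Ifit3, 0.80 for Gbp9 and 1.43 for Sp100. Ifi44l, Ly6e and Ifi47, at 0.64, -0.15 and 0.05, did not pass. Of the 12 largest falls 6 had a difference past the threshold, each a deeper fall in set 8, with -1.91 for Adm, -0.94 for Kbtbd11, -0.81 for Bnip3, -1.14 for Ankrd37, -0.68 for Pdk1 and -0.62 for Fam162a. The other 6 did not pass, among them Nxph4 at -0.22 and Selenbp1, whose change was -1.25 in set 8 and -2.02 in set 7. The activator transcript was higher in CRISPRa than in VP64 only libraries of set 8 and lower in set 7, and its part in these differences was not tested.

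Other large differences above 0 were those of Gbp10 (1.86) and Gbp6 (1.61), near neighbours in sequence whose reads may be shared. Rn7s1, a signal recognition particle RNA gene, had a difference of 5.20, its changes being 3.81 in set 8 and -1.39 in set 7. It had 25.5, 27.4 and 24.0 CPM in CRISPRa libraries of set 8, against 0, 25.6 and 0 CPM in VP64 only libraries, and the difference missed the threshold without VP64 replicate 4 (adjusted p 0.0782 by limma) or replicate 6 (0.0804), with no filter (0.1605), without trend (0.153) and with a robust model (0.191). In set 7 its CRISPRa libraries had 17.4, 0 and 11.3 CPM.

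Large differences below 0 were those of Txnip (-4.24), Rps2-ps13 (-3.65), Ccn2 (-2.40), Egr3 (-2.20) and Thbs1 (-1.87). Rps2-ps13, a ribosomal protein pseudogene, averaged 4.19 CPM in CRISPRa, against 8.08 CPM in VP64 only cells of set 8, and 2.73 CPM in CRISPRa cells of set 7, where VP64 only cells were listed at 0. Ccn2 and Thbs1, which encode matricellular proteins, averaged 2.15 and 7.93 CPM in CRISPRa and 0.951 and 5.11 CPM in VP64 only cells of set 8. In set 7 they averaged 7.36 and 14.3 CPM in CRISPRa and 0.303 and 2.20 CPM in VP64 only cells.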

How the results depend on the processing

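Without a trend in the variance model 1848 genes passed in set 8 (1159 higher, 689 lower), against 3490 (2013 and 1477) as reported, and the cause was not tested. Leaving out each library in turn gave 2510 to 3237 genes, with 1499 to 1854 higher and 986 to 1383 lower. Genes whose change differed between the sets numbered 2611 to 2886, with 1143 to 1230 above and 1446 to 1656 below 0. Scn2a passed, at an unaltered change of 0.47, with a filter of 1 CPM (adjusted p 0.0498), without trend (0.0292), with a robust model (0.0493) and with all 12 libraries fitted (0.0306), and at 0.42 with a pseudocount of 1 (0.0480). Its change was 0.38 to 0.52 with single libraries left out (adjusted p 0.0671 to 0.181, limma). Its difference between the sets was 0.071 with quantile scaling, against -0.06 as reported, and neither passed. Over 108 single genes named in set 8, 1670 recomputed values kept the call and direction and 49 lost the call, and none turned. Counts per list kept within 1.5 times in 788 of 864 cases.

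Replicate numbers did not pair the libraries: correlations of same-numbered deviations were -0.07, 0.01 and -0.03. With a replicate block 3017 genes passed (1755 higher, 1262 lower), and Scn2a had an adjusted p of 0.0807. The block ended the calls of Sqle and Kcnh2 and left 9 of 16 ribosomal protein falls. Depth limits genes of low level, such as Scn2a at 50 to 78 reads a library, and estimated reads cover counting error only.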

Other observations

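Outside the lists, several further genes were among those at least 2-fold higher, and they were picked after their values were seen. C2, C4b and Serping1 belong to the complement cascade of blood defence. C2 had 6.56, 9.53 and 10.2 CPM in CRISPRa, against 3.35, 1.79 and 2.41 CPM in VP64 only libraries (1.63 ± 0.21), and C4b had 1.06, 1.56 and 2.42 CPM in CRISPRa, against 0.0954, 0.358 and 0.190 CPM in VP64 only libraries (1.58 ± 0.28). Serping1, the inhibitor of the first complement component, rose by 1.16 ± 0.25. Samd9l, a restriction factor for poxviruses, had 80.3, 100.9 and 103 CPM in CRISPRa, against 16.3, 14.9 and 15.6 CPM in VP64 only libraries (2.56 ± 0.08). The apolipoprotein L genes Apol9a and Apol9b, near-identical copies, rose by 1.08 ± 0.05 and 1.16 ± 0.06, and the ubiquitin ligase Rnf213 by 1.07 ± 0.05.

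Angptl4, an inhibitor of lipoprotein lipase that is induced by hypoxia in many cells, had 21.7, 22.2 and 24.8 CPM in CRISPRa, against 9.73, 6.33 and 6.07 CPM in VP64 only libraries (1.60 ± 0.15), a direction opposite to most hypoxia-linked genes. Nes, the intermediate filament nestin of neural progenitors, rose by 1.15 ± 0.08 and Stmn4, a neuronal microtubule regulator, by 1.02 ± 0.06. Among the falls at least 2-fold, Pgm1, which links glycogen to glycolysis, had 53.3, 48.6 and 46.5 CPM in CRISPRa, against 97.8, 108 and 109.8 CPM in VP64 only libraries (-1.08 ± 0.06). Ppp1r3c, a glycogen-targeting subunit, fell by 1.07 ± 0.27 on the log2 scale, while Gys1, the glycogen synthase, fell by less than 2-fold (0.65 ± 0.06). Tph1, the peripheral tryptophan hydroxylase, and the DNA demethylase Tet1 fell by 1.24 ± 0.21 and 1.15 ± 0.17.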
